A study of Mus musculus with 10 samples.

Results

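A set of 10 genes that skeletal and cardiac muscle switch on under stretch, overload or damage to the contractile lattice were followed in aging muscle. They are the muscle ankyrin repeat genes Ankrd1, Ankrd2 and Ankrd23, the Z-disc gene Csrp3, the Xin repeat genes Xirp1 and Xirp2, the filamin gene Flnc, the matricellular genes Cyr61 and Ctgf, and the ferlin gene Myof. All 10 were found by symbol among the 37947 gene symbols listed, with 18 of the 92251 transcripts, and each gene is described at the transcript whose mean over the 10 libraries was highest. Poly-A RNA was sequenced from the gastrocnemius, a mixed but mainly fast calf muscle, of 5 young mice at 6 months and 5 aged mice at 24 months. The mice were male, by the methods, and of the strain C57BL/6, with no transgene or treatment in either group and 1 library for each mouse. The values are log2 FPKM, where FPKM is the number of fragments scaled to transcript length and library size, and an FPKM under 1 is listed as 0. Each group is of a single strain and sex, and the ages are separate mice, so the comparison is across animals and not over the life of one.

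The striated muscle cell carries its load through the sarcomere, whose thin filaments are anchored at the Z-disc and whose giant protein titin acts as a spring. The ankyrin repeat proteins bind titin at the N2A region and can also enter the nucleus, Csrp3 (muscle LIM protein) is a Z-disc protein needed for the response to stretch, and filamin C and the Xin proteins gather at sites of sarcomere damage. Cyr61 and Ctgf are secreted CCN proteins and standard targets of YAP and TAZ, coactivators of the TEAD factors that respond to tension on the cell. Ankrd1 is also a standard target of YAP and TAZ and is known as a cardiac gene that skeletal muscle makes after injury, stretch or denervation.

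The letters GGAATG, the core of the TEAD motif, were searched on both strands in RefSeq promoters of GRCm38.p6, from 250 bases before to 50 bases after each start. Of the members, 8 had entries, with 11 promoters, and 6 of these 11 promoters held the letters, against 14.7% of all 32851 promoters. Counted by gene, 4 of the 8 held them in at least 1 promoter (Ankrd1, Ankrd23, Flnc and Cyr61), against 16.6% of 27025 genes. The following stretches are shown because they include the 2 members with the largest age difference and, in Ankrd23, a member with almost none, with the motif in capitals and the rest in lower case, 5′ to 3′ in the direction of the gene.
Ankrd1, minus strand, chr19:36120037-36120066: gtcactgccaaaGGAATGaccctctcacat
Ankrd1, minus strand, chr19:36119950-36119979: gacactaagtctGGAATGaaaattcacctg
Cyr61, minus strand, chr3:145649986-145650235: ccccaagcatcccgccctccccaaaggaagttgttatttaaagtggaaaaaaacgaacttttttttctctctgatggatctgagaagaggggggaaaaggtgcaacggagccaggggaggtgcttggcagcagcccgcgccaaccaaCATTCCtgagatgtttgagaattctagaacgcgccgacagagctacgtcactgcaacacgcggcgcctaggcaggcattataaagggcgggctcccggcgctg
Ankrd23, minus strand, chr1:36535740-36535989: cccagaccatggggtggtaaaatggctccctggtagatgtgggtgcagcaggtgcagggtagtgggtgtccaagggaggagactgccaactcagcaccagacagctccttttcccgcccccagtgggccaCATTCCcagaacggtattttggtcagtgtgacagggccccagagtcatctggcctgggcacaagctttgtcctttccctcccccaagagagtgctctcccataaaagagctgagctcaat
The motif is on the strand shown in Ankrd1 and on the opposite strand in Cyr61 and Ankrd23. It begins -210 and -123 bases from the start in Ankrd1, at -103 in Cyr61 and at -120 in Ankrd23. In the GENCODE annotation both Ankrd1 stretches lie in the first exon of a longer Ankrd1 transcript and before the start of the others, the Cyr61 stretch lies before the gene, and the Ankrd23 stretch lies in an intron of longer transcripts of that gene. The same letters thus stand before Ankrd1 and Cyr61 and before a gene whose age difference was close to 0, and the match describes the letters only. The AP-1 letters TGANTCA, searched in the same promoters, were found in 1 of the 8 genes (Xirp2) and in 8.97% of all genes, and the CArG box of SRF in 0 of the 8 genes and 1.81% of all genes.

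At both ages the members kept a steep order of level. In young muscle Ankrd23 stood at 9.51 ± 0.26 log2 FPKM (SD, n = 5), followed by Xirp2 at 6.88 ± 0.34 and Flnc at 5.61 ± 0.22. The next 5 genes, Ankrd2, Ctgf, Csrp3, Xirp1 and Cyr61, had young means between 3.04 and 3.58 and did not differ beyond their spread. Ankrd1 lay far below them at 0.90 ± 0.18, and Myof was listed at 0. In aged muscle the top 3 and the lowest 2 were the same genes, while Ankrd2 at 4.81 and Cyr61 at 4.54 stood above Csrp3, Ctgf and Xirp1, which lay between 3.94 and 4.11, again within the spread.

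**Figure D1:**
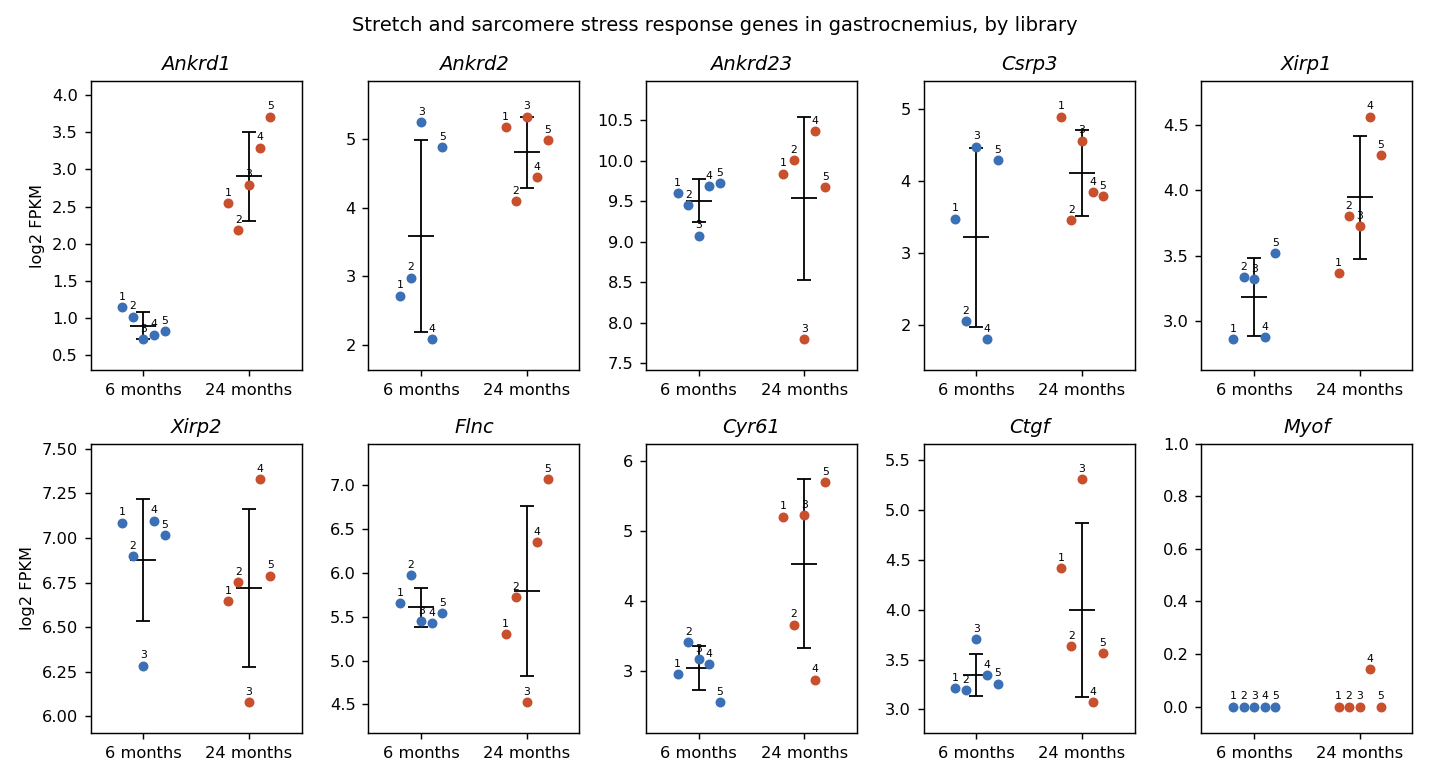
Log2 FPKM (y axis, a separate scale for each gene) of the 10 genes in each of the 5 young (6 months, blue) and 5 aged (24 months, orange) libraries, with library numbers beside the points and black bars for the mean ± SD (none for Myof, which is listed at 0 in 9 libraries). The 5 aged values of Ankrd1, from 2.18 to 3.71, all lie above the 5 young values, from 0.71 to 1.15, whereas the ages overlap in the other genes.

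Of the 10 members, 9 had a mean FPKM of at least 1 and entered the limma fit over 38059 transcripts. None of them had an adjusted p under 0.05, a level reached by 3 of all transcripts in the direction of a higher aged value (0.00788%) and by 0 in the other (0.0%), where the unadjusted limma p was under 0.05 for 1763 transcripts in both directions. At an unadjusted limma p under 0.05, 3 of the 9 were higher in aged muscle (Ankrd1, Cyr61 and Xirp1), against 6.05% of the 10164 genes tested at their row of highest mean. Of the 9, 0 were lower at that level, against 0.876% of genes. All aged libraries were above all young libraries for 1 member, Ankrd1, against 2.08% of genes, and below them for 0 members, against 0.354%. The median aged-minus-young difference of the 9 members was 0.76 on the log2 scale, beside 0.07 over all genes tested, and 8 of the 9 differences were above 0. As the median of all genes was also above 0, most genes shared that direction. In whole muscle, a change in the share of a cell type and a change in the RNA of each cell cannot be told apart.

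**Figure D2:**
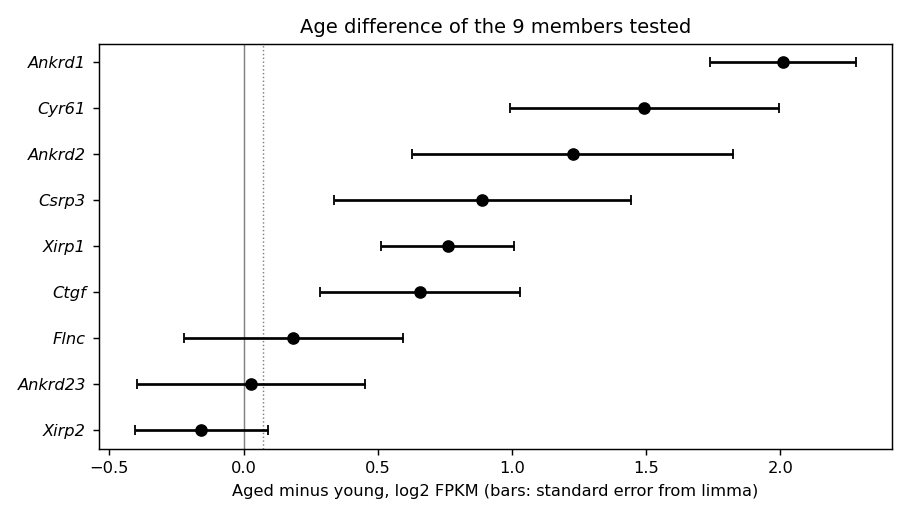
Aged-minus-young difference in log2 FPKM (x axis) for each of the 9 members tested, with bars of 1 standard error from limma and a dotted line at the median of all genes tested. The differences run from 2.01 for Ankrd1 to -0.16 for Xirp2.

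Ankrd1 (chr19:36111961-36120099, minus strand), the cardiac ankyrin repeat protein, had the largest difference of the set. Young libraries 1 to 5 had 1.15, 1.02, 0.71, 0.78 and 0.82 log2 FPKM, and aged libraries 1 to 5 had 2.55, 2.18, 2.80, 3.29 and 3.71. The lowest aged library was above the highest young one. The difference was 2.01 (SE 0.27), a 4.03-fold higher level, with an unadjusted limma p of 2.02e-05, the eighth lowest of all transcripts, and an adjusted p of 0.0960. A two-sided exact permutation test gave p = 0.00794, the smallest that 5 libraries against 5 allow. The values rest on 62 to 100 reads in the young and 181 to 467 reads in the aged libraries, so the gene was above the listing limit in every one. Summing FPKM over the rows of each gene, which leaves fewer features to adjust for, gave the same difference with an adjusted limma p of 0.0250, and over all alternatives the adjusted p ranged from 0.0250 to 0.425.

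Markers of other sources of Ankrd1 were read beside it. Of 6 cardiac markers, Nppa, Nppb, Tnni3 and Mybpc3 were listed at 0 in all 10 libraries and Myh6 was above 0 in 3, while Tnnt2, cardiac troponin T, which developing and regenerating skeletal fibers also make, had values of 0.065 to 1.02 in young and 1.30 to 2.41 in aged libraries. Tnnt2 differed by 1.45 (SE 0.29), with an adjusted limma p of 0.369, and the summed FPKM of the cardiac list was 1.05 to 2.22 in young and 3.08 to 8.50 in aged libraries. Of 8 regenerating fiber markers, 6 were tested and 3 were higher at an unadjusted p under 0.05, with a list median of 0.65, or 3 with Myod1 (0.0105) in place of Myh3 (0.0585) when compared as same-numbered pairs by limma. The shares of all genes tested that were higher at that level were 6.05% and, as pairs, 9.49%. Myh3 was listed at 0 in young libraries 1 and 2 and aged library 3, and entered the fit through its aged values. Chrna1, the acetylcholine receptor subunit that spreads over denervated fibers, differed by 1.33 (SE 0.21), and Myl4, the embryonic light chain, by 1.10 (SE 0.45), with adjusted limma p of 0.222 and 1.00. Their part in the Ankrd1 difference was not tested.

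Ankrd2 (chr19:42036000-42045110, plus strand), which binds titin and is enriched in slow fibers, varied widely between young mice. The young libraries had 2.72, 2.98, 5.25, 2.08 and 4.88 log2 FPKM, and the aged libraries had 5.18, 4.10, 5.33, 4.45 and 4.99. Young libraries 3 and 5 lay within the aged range and the other 3 young libraries lay below it. The difference was 1.23 (SE 0.60), with an unadjusted limma p of 0.0664 and an exact permutation p of 0.111. Compared as same-numbered pairs, in a fit with the library number as a replicate block, the aged library was the higher in 5 of 5 pairs and the unadjusted limma p was 0.0231 (adjusted p = 0.567), which brought the members at an unadjusted p under 0.05 to 4, against 9.49% of genes in that fit. Without young library 3, without young library 5 or without both libraries numbered 3 the difference was 1.64, 1.55 and 1.51, with unadjusted limma p of 0.0120, 0.0263 and 0.0214. Without young library 1, 2 or 4 it was 1.01, 1.08 and 0.85, with unadjusted limma p of 0.144, 0.132 and 0.162.

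Csrp3 (chr7:48830398-48848033, minus strand), the muscle LIM protein, was high and low in much the same libraries as Ankrd2. In young libraries it was 3.48, 2.05, 4.48, 1.80 and 4.29 log2 FPKM and in aged libraries it was 4.89, 3.46, 4.56, 3.84 and 3.79. The ages overlapped, with young libraries 3 and 5 again high and young libraries 2 and 4 lowest of all. The difference was 0.89 (SE 0.55), with an unadjusted limma p of 0.138 and an exact permutation p of 0.230. With 1 library left out it ranged from 0.53, without young library 4, to 1.21, without young library 3. A second transcript of the gene, which shares nearly all its reads with the first, gave 0.89 too.

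Across the 10 libraries, Ankrd2 and Csrp3 had a Pearson r of 0.895 and a Spearman rho of 0.891, with permutation p of 0.000470 and 0.00107 and adjusted p of 0.0169 and 0.0293 over the 36 pairs of members. With each value taken as its deviation from its age mean, r was 0.866, and without the 2 libraries farthest from the median of Ankrd2 it was 0.955. Both genes are known to be richer in slow than in fast fibers, and the 9 slow fiber markers varied widely between the mice. In the order of their numbers, the young libraries had a mean of 1.73, 3.39, 4.70, 1.87 and 4.51 log2 FPKM over these markers and the aged libraries had 6.53, 5.63, 4.47, 3.57 and 2.34, and the summed FPKM ran from 39.9 to 359 in young and from 80.0 to 1091 in aged libraries. Young libraries 3 and 5 were high in Ankrd2, Csrp3 and the slow markers alike, while aged library 5 was low in slow markers with Ankrd2 at 4.99. Of the 9 slow markers, 1 (Myl3, the slow myosin light chain, 1.60, SE 0.71) was higher at an unadjusted limma p under 0.05, with a list median of 1.43, and 0 of the 9 were when the libraries were compared as same-numbered pairs (unadjusted limma p of 0.0548 for Myl3). Among all genes tested, 6.05% were higher at that level, or 9.49% as same-numbered pairs. The part of slow fiber content in Ankrd2 and Csrp3 was not tested.

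**Figure D3:**
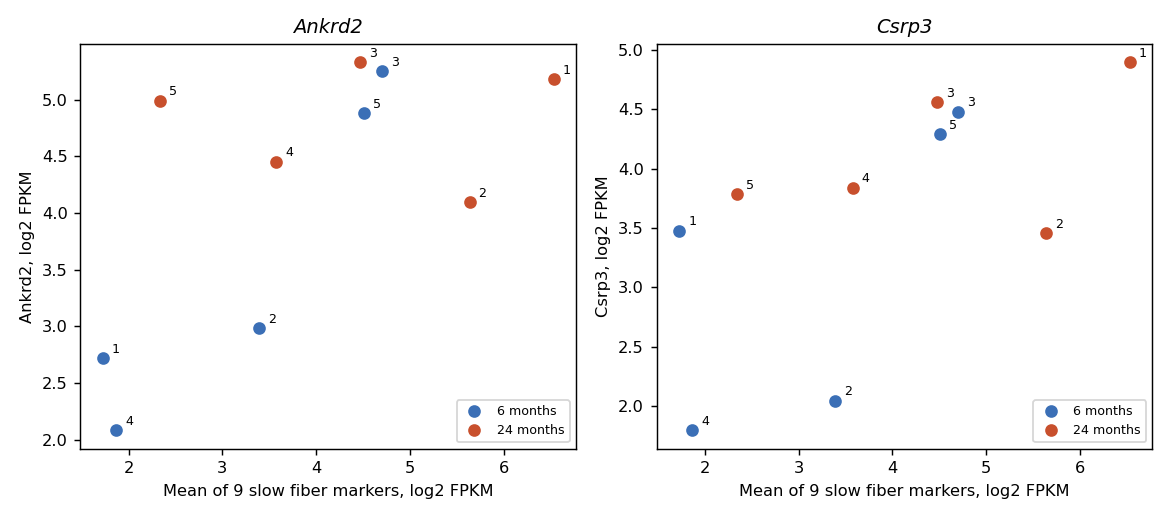
Log2 FPKM of Ankrd2 (left) and Csrp3 (right) on the y axis against the mean log2 FPKM of 9 slow fiber markers on the x axis, 1 point for each library, with blue for 6 and orange for 24 months and library numbers beside the points. Young libraries 1 and 4 lie at the low end of the slow markers (1.73 and 1.87) and young libraries 3 and 5 higher (4.70 and 4.51), while aged library 5 has 2.34 with Ankrd2 at 4.99.

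Ankrd23 (chr1:36530188-36536883, minus strand), the third ankyrin repeat member and the most abundant gene of the set, had nearly equal means at the 2 ages. Its young values were 9.60, 9.45, 9.08, 9.69 and 9.72 log2 FPKM and its aged values were 9.84, 10.01, 7.79, 10.37 and 9.67. Aged library 3 was far below all others, and young library 3 was the lowest of its group. The difference was 0.03 (SE 0.43), with an unadjusted limma p of 0.949 and an exact permutation p of 0.976. Without aged library 3 it was 0.46, with an unadjusted limma p of 0.0319 and an adjusted p of 0.411, and without both libraries numbered 3 it was 0.36 with an unadjusted limma p of 0.0533.

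Xirp1 (chr9:120013755-120023598, minus strand) encodes an actin-binding Xin repeat protein of the myotendinous junction and of damaged sarcomeres. Its young values were 2.86, 3.34, 3.32, 2.88 and 3.52 log2 FPKM and its aged values were 3.37, 3.80, 3.73, 4.56 and 4.26. Of the 5 aged libraries, 4 lay above all young ones, and aged library 1 lay inside the young range. The difference was 0.76 (SE 0.25), a 1.69-fold higher level, with an unadjusted limma p of 0.0112, an adjusted p of 1.00 and an exact permutation p of 0.0159. The values rest on 867 to 2020 reads in young and 1281 to 3657 reads in aged libraries.

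Its relative Xirp2 (chr2:67446002-67526614, plus strand), which binds actinin and actin at the Z-disc, had the only negative difference among the 9 members tested. Values of 7.09, 6.90, 6.29, 7.10 and 7.02 log2 FPKM in young libraries stood beside aged values of 6.65, 6.75, 6.08, 7.33 and 6.79, so both libraries numbered 3 were the lowest of their age. The difference was -0.16 (SE 0.25), with an unadjusted limma p of 0.540 and an exact permutation p of 0.540.

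Flnc (chr6:29433256-29461883, plus strand), filamin C, which crosslinks actin at the Z-disc and binds the Xin proteins, had close means at the 2 ages and aged values on both sides of the young ones. The young values were 5.66, 5.98, 5.45, 5.42 and 5.54 log2 FPKM and the aged values were 5.31, 5.72, 4.53, 6.35 and 7.07. Aged libraries 1 and 3 were below and aged libraries 4 and 5 were above every young library. The difference was 0.19 (SE 0.41), with an unadjusted limma p of 0.659 and an exact permutation p of 0.690, and the SD was 0.97 in aged against 0.22 in young muscle, a contrast of spread that was not tested.

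Cyr61 (Ccn1, chr3:145646976-145649981, minus strand), a secreted protein that is also an immediate early gene, was higher in most of the aged libraries. Its young values were 2.96, 3.42, 3.17, 3.11 and 2.56 log2 FPKM and its aged values were 5.21, 3.67, 5.23, 2.88 and 5.70. Aged libraries 1, 3 and 5 were well above every young library, aged library 2 was just above, and aged library 4 was inside the young range. The difference was 1.49 (SE 0.50), a 2.81-fold higher level, with an unadjusted limma p of 0.0134, an adjusted p of 1.00 and an exact permutation p of 0.0476, which was between 0.0635 and 0.0952 in 8 of the 10 fits that left out 1 library. The reads behind it numbered 323, 527, 632, 398 and 238 in young and 1593, 583, 2413, 397 and 2135 in aged libraries.

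Ctgf (Ccn2, chr10:24595442-24598683, plus strand), the related growth factor of connective tissue, differed in the same direction but within its spread. Its young values were 3.22, 3.19, 3.70, 3.34 and 3.26 log2 FPKM and its aged values were 4.42, 3.63, 5.31, 3.07 and 3.56. Aged libraries 1 and 3 were above the young range and aged library 4 was the lowest of all 10. The difference was 0.66 (SE 0.37), with an unadjusted limma p of 0.107 and an exact permutation p of 0.135. It moved to 0.33 without aged library 3 and to 0.89 without aged library 4, with unadjusted limma p of 0.209 and 0.0299.

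The transcripts listed for Ctgf did not all give the same difference. Ctgf-003, which shares most of its reads with the main transcript, gave 0.71, while Ctgf-002, a short transcript of 343 bases at the 5′ part of the gene (chr10:24595780-24596370), gave -0.24. Reads of the short transcript were 8.35%, 8.10%, 4.26%, 6.50% and 7.02% of those of the main transcript in young libraries 1 to 5 and 6.62%, 4.75%, 0.497%, 6.36% and 5.93% in aged libraries 1 to 5. In aged library 3 this was 15 reads beside 3021, the lowest share of all, and young library 3 had the lowest of its group.

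These low shares came with other marks of the 2 libraries numbered 3. For 573 transcripts of 5000 bases or longer, the median deviation from the mean of all libraries was -0.42 in young and -0.60 in aged library 3, against -0.02 to 0.42 in the others, and for 458 transcripts under 1000 bases it was 0.25 and 0.54, against -0.15 to 0.06. A transcript of Flnc of 1151 bases at the 5′ end of the gene, annotated as a retained intron, was listed at 0 in both of these libraries. It had 151 to 953 reads in the others. The part of these libraries in the low values of Ankrd23, Xirp2 and Flnc was not tested beyond leaving them out, and without both of them the members at an unadjusted limma p under 0.05 were 4 (Ankrd1, Ankrd2, Xirp1 and Cyr61), against 13.5% of genes in that fit.

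**Figure D4:**
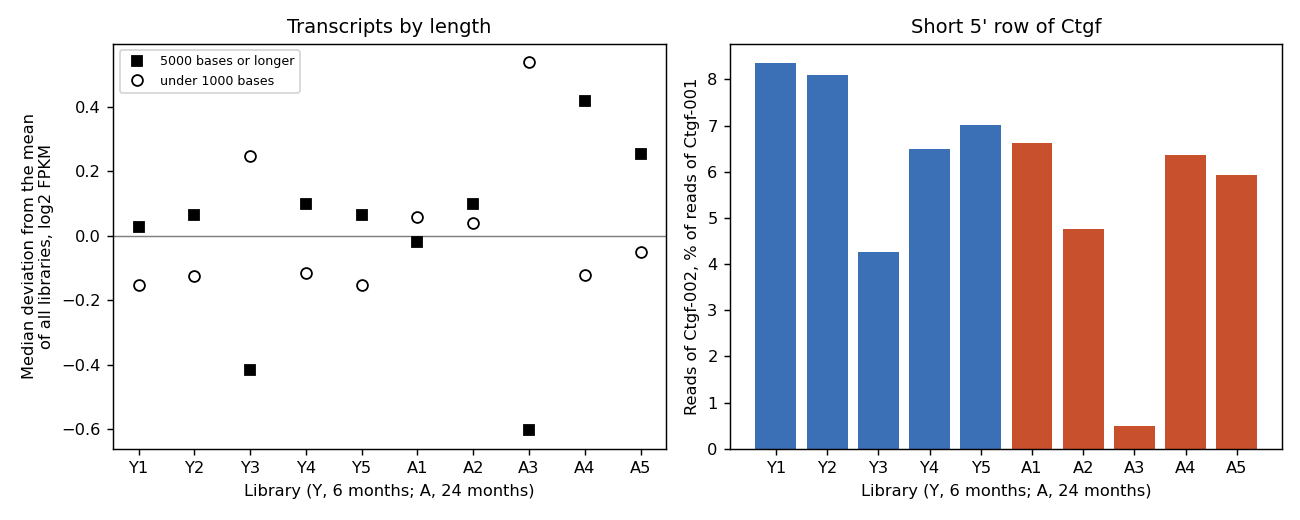
Left, median deviation of log2 FPKM from the mean of all libraries (y axis) for transcripts of 5000 bases or longer (squares) and under 1000 bases (circles) in each library (x axis, Y for 6 and A for 24 months). Right, reads of the short transcript Ctgf-002 as a percentage of reads of Ctgf-001 in each library, where aged library 3 has 0.497% and the other 9 libraries have 4.26% to 8.35%.

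Myof (chr19:37899036-38043577, minus strand), myoferlin, a membrane repair protein of myoblasts and injured fibers, was listed at 0 in all 5 young libraries and in aged libraries 1, 2, 3 and 5. Aged library 4 had 0.14, just over the listing limit. The gene was therefore at or under an FPKM of about 1 at both ages, and no comparison could be made.

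Other pairs of members differed in how they moved across the libraries. Of the 36 pairs, 4 had an adjusted permutation p under 0.05 by Pearson's r and 2 of these also by Spearman's rho. Besides Ankrd2 with Csrp3, this was Xirp2 with Ctgf, which ran in opposite directions with r = -0.834 and rho = -0.879 (permutation p = 0.00428 and 0.00163, adjusted p = 0.0385 and 0.0293). Within ages r was -0.858 and without the 2 libraries farthest from the median of Xirp2, which are those numbered 3, it was -0.803. Leaving these out did not remove all deviation by transcript length. For the long transcripts described above, the median deviation was 0.42 in aged library 4 and 0.25 in aged library 5. Aged library 4 had the highest Xirp2 (7.33) and the lowest Ctgf (3.07) of all libraries. Aged library 5 had 6.79 and 3.56. The part of transcript length in this relation was not tested. Ankrd1 with Xirp1 had r = 0.816 and rho = 0.758 (permutation p = 0.00335 and 0.0151, adjusted p = 0.0385 and 0.136), which was 0.534 within ages. Ankrd23 with Xirp2 had r = 0.819 and rho = 0.491 (permutation p = 0.00266 and 0.155, adjusted p = 0.0385 and 0.429), and r was 0.345 without the libraries numbered 3, so this relation rests on them. The values of a pair share libraries, and with them depth and any deviation by transcript length.

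The mean z-score of the 9 members above 0 in all libraries was compared with 8207 other genes above 0 in all of them. The 5 genes with the highest Pearson correlation over the 10 libraries were Hspb7, a small heat shock protein of muscle (0.951), Myl12a, a regulatory light chain of non-muscle myosin (0.940), Egln3, a prolyl hydroxylase (0.931), AC118255.1 (0.915) and Xbp1, a factor of the unfolded protein response (0.913). They were chosen as the highest of all these genes and are given as a description.

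Lists of genes around the members were examined in the same fit, and no gene in any of them had an adjusted limma p under 0.05. The counts of higher genes below stand beside 6.05% of all genes tested at an unadjusted limma p under 0.05. When compared as same-numbered pairs, that share was 9.49%. Of 20 other YAP and TAZ target genes, 13 were tested, 2 were higher at an unadjusted p under 0.05 and 0 were lower, with a median difference of 0.24. These were F3, tissue factor, which starts coagulation (0.89, SE 0.23, with all aged above all young libraries), and Gadd45a, a stress gene also known from denervated muscle (0.81, SE 0.33). Of 16 Hippo pathway genes and TEAD factors, 13 were tested and 1 was higher, Mob1a, a cofactor of the LATS kinases (0.64, SE 0.24), with a median of 0.24. The coactivators themselves, Yap1 and Wwtr1, differed by 0.31 (SE 0.14) and 0.36 (SE 0.20), and Tead1 by -0.14 (SE 0.28), none with an unadjusted limma p under 0.05. Compared as same-numbered pairs, Yap1 and Wwtr1 had unadjusted limma p of 0.0419 and 0.0253, which brought the Hippo pathway genes past that level to 3, and the YAP and TAZ targets came to 3 with Ptpn14 (0.0175).

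The Z-disc and titin list and the SRF list had medians near 0. In this paragraph too, the counts of higher genes stand beside 6.05% of all genes, or 9.49% as same-numbered pairs. Of 28 Z-disc and titin partners, 27 were tested, with a median of -0.01, and 5 were higher and 0 lower at an unadjusted p under 0.05, or 4 higher when compared as same-numbered pairs, without Myoz2 (unadjusted limma p of 0.0569). The largest of these were Igfn1, a Z-disc protein of skeletal muscle (1.22, SE 0.47), and Pdlim1, a PDZ and LIM adapter of actinin (1.00, SE 0.42). Of 18 SRF factors and cytoskeletal targets, 15 were tested and 1 was higher, Abra, an actin-binding activator of SRF signaling (0.73, SE 0.26), with a median of 0.02. Of 15 small heat shock and filamin turnover genes, 14 were tested and all 14 differences were above 0, with a median of 0.32. The median of all genes tested was 0.07, so most genes differed upward too. Of the 14, 1 gene, Hspb7 (1.37, SE 0.43), had an unadjusted limma p under 0.05. In the comparison of same-numbered pairs Cryab and Hspb1, both small heat shock proteins, joined it with unadjusted limma p of 0.00700 and 0.0325, and the SRF list had 2 genes past that level. Of 9 relatives of the CCN and ferlin members, 3 were tested, with a median of 0.15 and 0 past that level.

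Immediate early genes, the class to which Cyr61 belongs, were the list with the most members past the unadjusted level. Of 17 listed, 15 were tested, 10 were higher and 0 lower at an unadjusted limma p under 0.05, against the 6.05% of genes given above, with a median of 1.19. Egr1, a zinc finger factor induced within minutes of a stimulus, differed by 3.53 (SE 0.89), and Junb, a component of AP-1, by 2.35 (SE 0.40), with adjusted limma p of 0.659 and 0.273. Egr1 was listed at 0 in young libraries 2, 4 and 5, and Fos in young libraries 2 and 4. Both reached the mean FPKM of 1 needed for the fit through their aged values. Their differences thus rest on young values partly at the listing limit. The list mean was 1.94 to 2.63 log2 FPKM in young and 3.03 to 3.50 in aged libraries. Aged library 4, where Cyr61 was 2.88, had a list mean of 3.22, and aged library 5, where Cyr61 was 5.70, had 3.03. The other 5 genes tested had differences of -0.29 to 0.85. Whether these genes and Cyr61 share a source of difference was not tested.

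**Figure D5:**
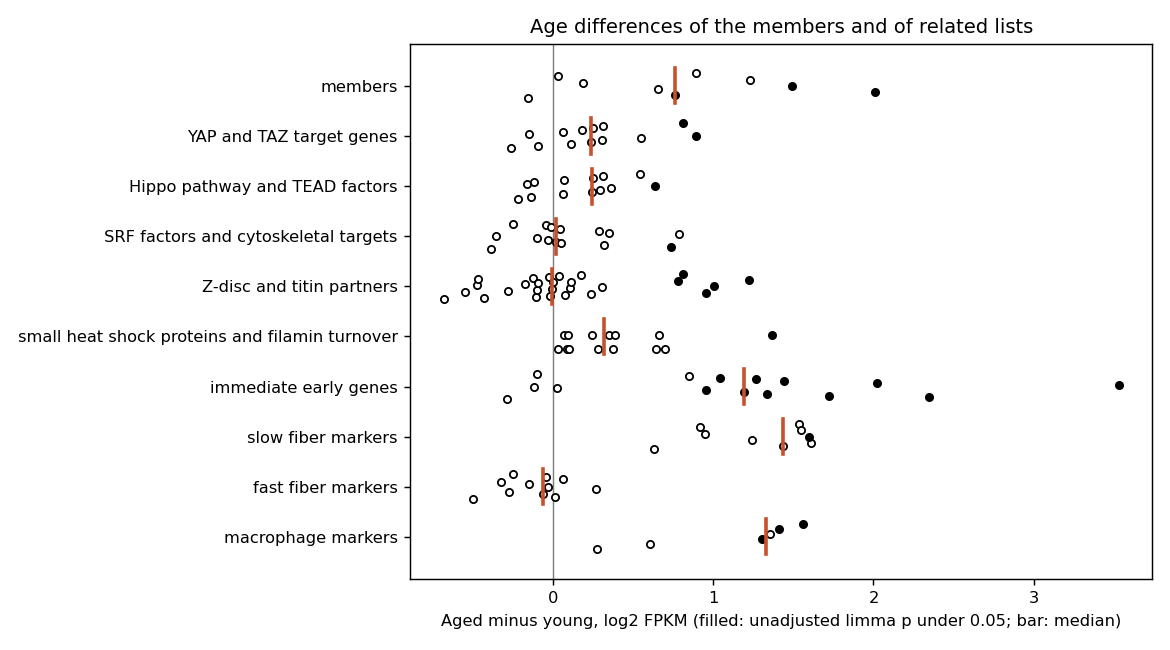
Aged-minus-young difference in log2 FPKM (x axis) of each gene tested in the member set and in 9 related lists (y axis), with filled points for an unadjusted limma p under 0.05 and an orange bar for the list median. The medians are 0.76 for the members, 1.19 for immediate early, 1.43 for slow fiber and 1.33 for macrophage genes, and lie between -0.06 and 0.32 for the other 6 lists.

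Markers of the cells that could hold these RNAs were set beside them. Fast fiber markers, the defining genes of the labelled muscle, were abundant in every library, with a summed FPKM of 154700 to 191900 in young and 139100 to 184500 in aged muscle, 0 of 11 past an unadjusted limma p of 0.05 and a median of -0.06. Of 8 macrophage markers, 6 were tested and 3 were higher, or 4 with C1qa (unadjusted limma p of 0.0418) when compared as same-numbered pairs, with a median of 1.33, among them C1qb (1.56, SE 0.54) and Cd68 (1.41, SE 0.38), and the summed FPKM was 9.52 to 27.7 in young and 18.3 to 103 in aged libraries. Cd68 was listed at 0 in young libraries 1, 3, 4 and 5, so it entered the fit through its aged values. Of all genes tested, 6.05% were higher at that level, or 9.49% as same-numbered pairs. The macrophage marker mean was highest in aged libraries 3 and 4, at 3.15 and 3.30 log2 FPKM. These libraries had the middle and the second highest aged values of Ankrd1. Fibroblast markers, from cells that also make Ctgf and Cyr61, had a median of -0.18 over 7, with Col3a1, a fibrillar collagen, at -1.03 (SE 0.37), 1 gene lower at an unadjusted limma p under 0.05 or 2 when compared as same-numbered pairs, and a summed FPKM of 191 to 299 in young and 148 to 304 in aged muscle.

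Endothelial, smooth muscle and pericyte, adipocyte, tendon and satellite cell markers were also read beside the members. Endothelial markers, with 7 tested, had a median of 0.16 and a summed FPKM of 52.1 to 55.8 in young and 55.3 to 68.7 in aged libraries. Smooth muscle and pericyte markers, with 6 of 7 tested, had a median of -0.02, and adipocyte markers, with 5 of 6 tested, had 0.19, each with 0 past the unadjusted level, except 1 adipocyte gene, Cfd, when compared as same-numbered pairs. Tendon markers, with 6 of 7 tested, had a median of -0.44. Of these 6 differences, 1 was above 0 and past the unadjusted level, that of the tendon factor Scx (0.92, SE 0.32). Tnmd and Comp were listed at 0 in aged libraries 4 and 5 but reached 3.12 and 4.82 log2 FPKM in other aged libraries. The summed FPKM of the tendon list was 50.05 to 123.8 in young and 25.12 to 166.1 in aged libraries. Of 4 satellite cell markers, Pax7 and Myf5 were listed at 0 in all libraries and 1 was tested, with a difference of 0.04. The part of each of these cell types in the member differences was not tested.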

How the data were processed

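Gastrocnemius RNA from 10 mice, 5 at 6 months and 5 at 24 months, was analysed. The authors deposited log2 FPKM for each transcript and library, without pooling. By their methods, the values came from paired-end sequencing of poly-A RNA with alignment to mm10 (TopHat2 in the submitters' notes). The methods speak of RefSeq genes while the rows carry Ensembl and Vega transcript names, and a read is counted in full for every transcript that holds it. Strandedness was not given in the sources used here. The steps between the deposited log2 values gave depths of 19886359 to 34554401 reads and, with them, the reads quoted. An FPKM of 1 on 1000 bases stands for 19.9 to 34.6 reads, below which no difference was detectable.

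All 38059 transcripts whose mean FPKM reached 1 entered a limma fit (version 3.58.1, R 4.3.3) that was tested on simulated data first, and p-values were adjusted over all of them by Benjamini-Hochberg. In the simulation, log2 differences of 1, 2 and 3 given to 200 transcripts were found in 15.0%, 62.5% and 88.0%, with 0, 13 and 10 false calls. A difference of 1 was therefore mostly missed. The simulated libraries were independent, unlike the same-numbered ones here. Single members were compared by two-sided exact permutation over 252 labellings. Pairs of members were correlated with two-sided permutation p from 100000 draws, adjusted over 36 pairs. With 1 library a mouse, the spread behind the p-values holds differences between mice and between libraries, which cannot be told apart. The limma p also draws on the spread of all transcripts in the fit. Same-numbered libraries of the 2 ages deviated together, the 5 correlations being 0.131, 0.332, 0.695, 0.390 and 0.208 (mean 0.351) in order of number, against -0.04 for unlike numbers, and were therefore also fitted as pairs. What the numbers mark is not given in the sources used here. A sign test on 5 pairs cannot give p under 0.0625.

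The members and gene lists were chosen with earlier results of these data known. The text names all members, the 2 genes of each list with the largest difference in each direction at an unadjusted limma p under 0.05, markers needed beside a result, and the 5 genes most like the members' mean z-score. Yap1, Wwtr1, Tead1, Cryab, Hspb1, Cfd, Myoz2, Ptpn14, Myod1, Myh3, C1qa, Fos, Tnmd and Comp were named after their values were seen. The result of 1 marker list is not reported here. Gene positions are from GENCODE vM21 (GRCm38) and promoters from RefSeq GRCm38.p6, matched by symbol for 10 and 8 members. Other steps ran in Python 3.11.15 (scipy 1.17.1, pandas 2.3.3, numpy 2.4.6), and plots were drawn with matplotlib 3.10.9.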

Additional observations from a re-analysis of the deposited data

Results flagged for a closer look

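Of 19 groups of 5 libraries examined for a single value apart from the rest, 3 were singled out, and chance flags about 1 in 20 such groups. Ankrd23 was 7.79 log2 FPKM in aged library 3, where the other 4 aged libraries ranged from 9.67 to 10.4. Xirp2 was 6.29 log2 FPKM in young library 3, where the other 4 young libraries ranged from 6.90 to 7.10. Myof was 0.144 log2 FPKM in aged library 4 and listed at 0 in the other 4 aged libraries, so the value lies just above the listing limit.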

How the results depend on the processing

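The count of transcripts with an adjusted limma p under 0.05, 3 as reported, was 5 with log2 of FPKM plus 1 and 5 among transcripts above 0 in all libraries. It was 0 with median-of-ratios scaling, 0 with quantile normalization and 0 with the replicate block. Leaving out 1 library gave 0 to 23, with 23 without aged library 3 and 11 without aged library 5, and leaving out both libraries numbered 3 gave 11. Summing FPKM over the rows of a gene gave 1 member with an adjusted p under 0.05, Ankrd1 at 2.01 with 0.0250. Members with all aged above all young libraries were 1 to 2 when 1 library was left out, and 2 without young library 5 or aged library 1, when Xirp1 joined Ankrd1, or without aged library 4, when Cyr61 did. The share of all genes with that separation was 2.23% to 6.51% when 1 library was left out, and 2.27%, 2.66% and 2.66% without those 3. Ankrd23 turned to -0.0122 with median-of-ratios scaling, and with 1 library left out it ranged from -0.180 to 0.465. Xirp2 ranged from -0.310 to 0.0025 and Flnc from -0.133 to 0.503 with 1 library left out, turning without aged library 3 and aged library 5 respectively. The cause was not tested. Ankrd1, Cyr61 and Xirp1 kept their direction and an unadjusted limma p under 0.05 in 21 of 21 alternatives (1 of which, the second row, only repeats the value of these single-row genes), at 1.58 to 2.19, 1.20 to 1.91 and 0.61 to 0.90. The exact permutation p of Cyr61, 0.0476 as reported, was 0.0635 with median-of-ratios scaling, 0.0794 with quantile normalization, 0.00794 to 0.0952 with 1 library left out and 0.114 without both libraries numbered 3, where that of Xirp1 was 0.0571. Among the members tested, the replicate block changed the unadjusted call of Ankrd2 and of no other.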
